A study of Mus musculus with 9 samples.

Results

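The genes described here are those of the spindle assembly checkpoint, the kinetochore and the centromere, in mouse oocytes arrested at metaphase II. They were chosen by name: 51 symbols were listed, 50 of them matched a gene among the 22526 of the expression table, and Rod1 matched none. In the RefSeq gene table Rod1 is only an older symbol of another gene, Ptbp3. The subunit of the RZZ complex known as Rod carries the symbol Kntc1 in mouse, and it is given among the other kinetochore genes below.

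Oocytes of the ICR strain were compared in 3 groups of 3 libraries each. The NMN group is labelled by the compound alone, nicotinamide mononucleotide, a precursor of the coenzyme NAD+. The aged group and the young group are labelled by age class. The series title describes the compound as a supplement for maternally aged oocytes. The labels used here give no dose, route or age in weeks, and do not state the age of the mice of the NMN group. They also do not state how many oocytes or mice entered a library. The p-values therefore cover the spread among the 3 libraries of a group, and that spread may be technical. Complementary DNA was made with Smart-seq2, which primes from the poly(A) tail with oligo(dT) and amplifies full-length copies.

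The kinetochore is the protein assembly that joins a chromosome's centromere to spindle microtubules. Its inner layer rests on nucleosomes carrying the histone variant CENP-A, and its outer layer binds the microtubules. Kinetochores without microtubules recruit the checkpoint proteins, which hold back the anaphase-promoting complex, and the chromosomal passenger complex destabilises faulty attachments. In oocytes this machinery is known for acting on chromosomes that were paired before birth, and errors of segregation are known to become more frequent with maternal age.

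Sequencing depth, read from the steps between low values, was 16.28 to 19.25 M reads per library. At this depth 3 reads on a transcript of 2000 bases correspond to 0.0779 to 0.0922 FPKM (fragments per kilobase of transcript, scaled to the size of the library), for counting error only. Of 12 oocyte marker genes, all 12 were in the table, and they summed to 6908 to 10451 FPKM per library. Library aged 2 stood apart from the other 8 on the first principal component, which held 41.1% of the variance. In it the cumulus and granulosa cell markers summed to 26.6 FPKM, with 15 of 17 above 0, against 5.31 to 9.31 FPKM and 5 to 9 above 0 in the other 8 libraries. The part of this difference in the results below was not tested. Aged 2 had the highest value of the 9 libraries for 14 and the lowest for 12 of the 44 kinetochore genes tested, which is 31.8% and 27.3%, beside 27.1% and 21.4% of all tested genes.

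The transcripts of the kinetochore genes spanned a wide range of levels, and a few of them made up most of the total. The 50 genes summed to 2500.4 FPKM on average, and the 8 highest held 69.4% of it. These 8, each above 100 FPKM on average, were Bub1b, Cenph, Dsn1, Cenpn, Aurka, Cenpe, Cdca8 and Nuf2. A further 16 genes lay between 10 and 100 FPKM, 20 between 1 and 10 FPKM and 6 below 1 FPKM, and the median gene averaged 9.78 FPKM. The ratio of the highest to the lowest of the 9 libraries was 2.03 for the median gene tested and ran between 1.30 and 5.74.

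**Figure D1:**
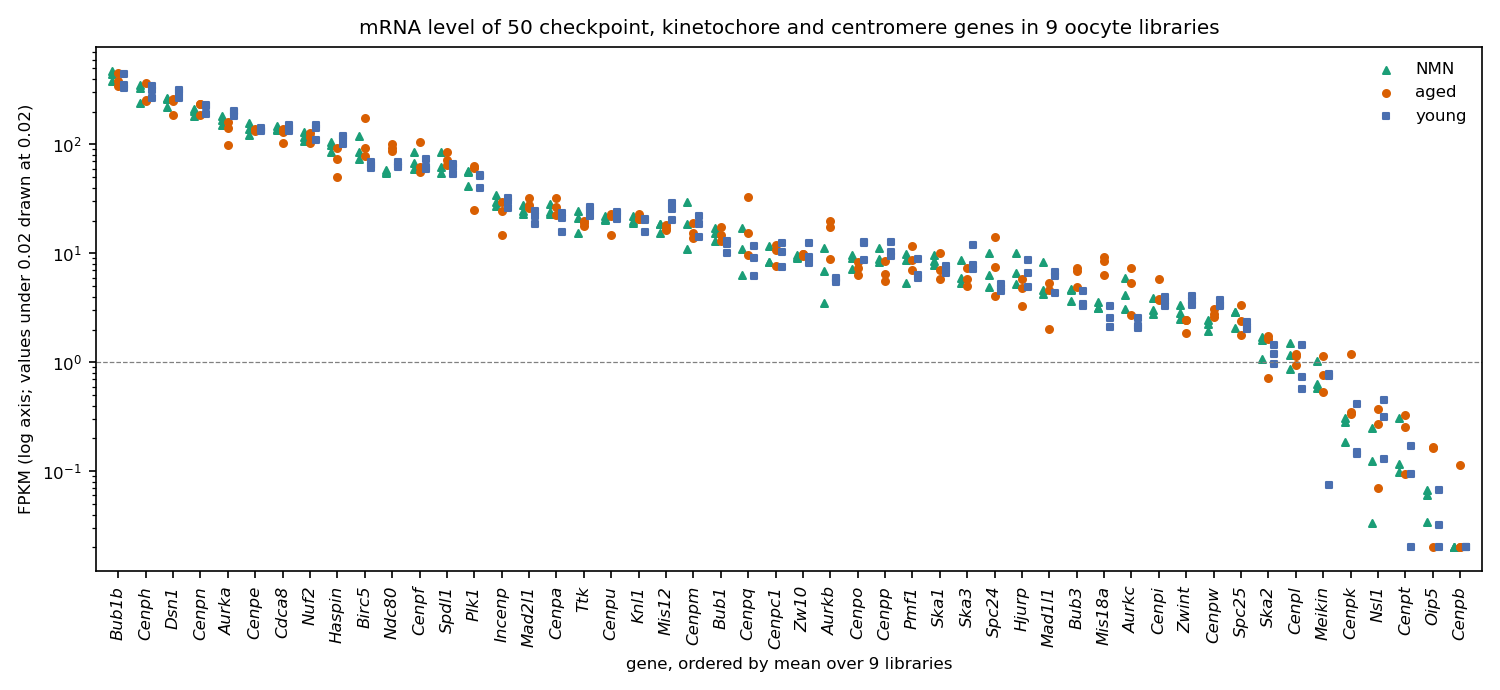
Level of the 50 matched genes in each of the 9 libraries (FPKM, log axis, values under 0.02 drawn at 0.02), ordered by their mean; each point is 1 library and the dashed line marks 1 FPKM. Bub1b leads with a mean of 399.7 FPKM, and 6 genes average below 1 FPKM.

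The 6 genes below the filter of 1 FPKM in at least 3 libraries were Meikin, Cenpk, Nsl1, Cenpt, Oip5 and Cenpb, and none of them was tested. Meikin, the meiosis-specific kinetochore protein that protects cohesin in the first division, was at 0.585, 0.632 and 1.03 FPKM in NMN, 0.530, 0.766 and 1.14 FPKM in aged, and 0.746, 0.0755 and 0.784 FPKM in young oocytes. Oip5, the partner of Mis18a also called Mis18-beta, stayed at or below 0.169 FPKM in every library. Cenpb, which binds a motif in centromeric satellite DNA, was listed at 0 in 8 of 9 libraries and at 0.113 FPKM in aged 2. The groups overlapped for Meikin and for Oip5.

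Of the 44 genes tested, 1 gene, Mis18a, rose in aged against young oocytes and none fell (limma, Benjamini-Hochberg adjustment over 9168 genes, adjusted p below 0.05). The background was 200 of 9168 genes, or 2.18%, with 1.27% higher and 0.916% lower. Before adjustment 12 of the 44 genes, or 27.3%, had p below 0.05, 6 higher and 6 lower, against 18.3% of all genes. Without young 2 there were 7, or 15.9% against 14% of all genes, and without young 3 there were 6, or 13.6% against 11.9%. The aged libraries lay all above or all below the young ones, called no overlap here, for 17 of the 44, or 38.6%, against 23.8% of all genes. Of these, 8 were higher in aged oocytes (Birc5, Ndc80, Mad2l1, Knl1, Aurkb, Bub3, Mis18a and Aurkc) and 9 were lower (Dsn1, Aurka, Haspin, Ttk, Mis12, Cenpo, Cenpp, Zwint and Cenpw). Without aged 2, 22 of 44 did not overlap, against 37.8% of all genes. The median log2 change of the 44 genes was -0.04, beside -0.05 for all genes. With limma's quality weights per library in place of equal weights, 9 of the 44 passed, 5 higher and 4 lower in aged oocytes. Those higher were Mis18a, Aurkb, Aurkc, Bub3 and Ndc80, and those lower were Mis12, Zwint, Cenpp and Cenpo. With these weights 906 of 9168 genes passed, 496 higher and 410 lower. FPKM are relative to the library, so they do not give the amount of RNA per oocyte. A lower share of oocyte RNA in a library and less of a transcript per oocyte cannot be told apart from them alone.

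No kinetochore gene passed the test between NMN and aged oocytes (0 of 44 by limma), where the background was 20 of 9168 genes, or 0.218%, with 0.12% higher and 0.0982% lower. At an unadjusted p below 0.05 there were 4 genes, 1 higher and 3 lower in NMN oocytes, which is 9.09% against 11.3% of all genes. The libraries did not overlap for 5 genes, or 11.4%, against 15.6% of all genes: Zwint was higher and Ndc80, Bub3, Mis18a and Cenpw were lower in NMN oocytes. Without aged 2 there were 10 such genes, or 22.7%, 3 higher and 7 lower, against 35.5% of all genes. With limma's quality weights per library in place of equal weights, 3 genes passed, all lower in NMN oocytes: Ndc80 (adjusted p = 0.0189), Mis18a (adjusted p = 0.0120) and Aurkb (adjusted p = 0.0228). With these weights 163 of 9168 genes passed, or 1.78%, and 0.927% were lower. This comparison shares the aged libraries with the one above, so the values of both are given side by side and no overlap between them is drawn.

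NMN and young oocytes also showed no gene past the threshold (0 of 44 by limma), with a background of 7 of 9168 genes, or 0.0764%, with 0.0654% higher and 0.0109% lower. At an unadjusted p below 0.05 there were 2 genes, Cenpw and Mis12, both lower in NMN oocytes, which is 4.55% against 8.13% of all genes. The libraries did not overlap for 8 genes, or 18.2%, against 16.6% of all genes. Of these, 3 were higher in NMN oocytes (Birc5, Ska1 and Aurkc) and 5 were lower (Aurka, Ndc80, Mis12, Zwint and Cenpw), where 9.58% of all genes were higher and 6.99% lower. With the replicate number as a block in the fit of all 9 libraries, the count over all genes was 0 and that of kinetochore genes stayed 0. This block also ties the aged libraries by number, and no blocked fit of NMN and young libraries alone was run.

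**Figure D2:**
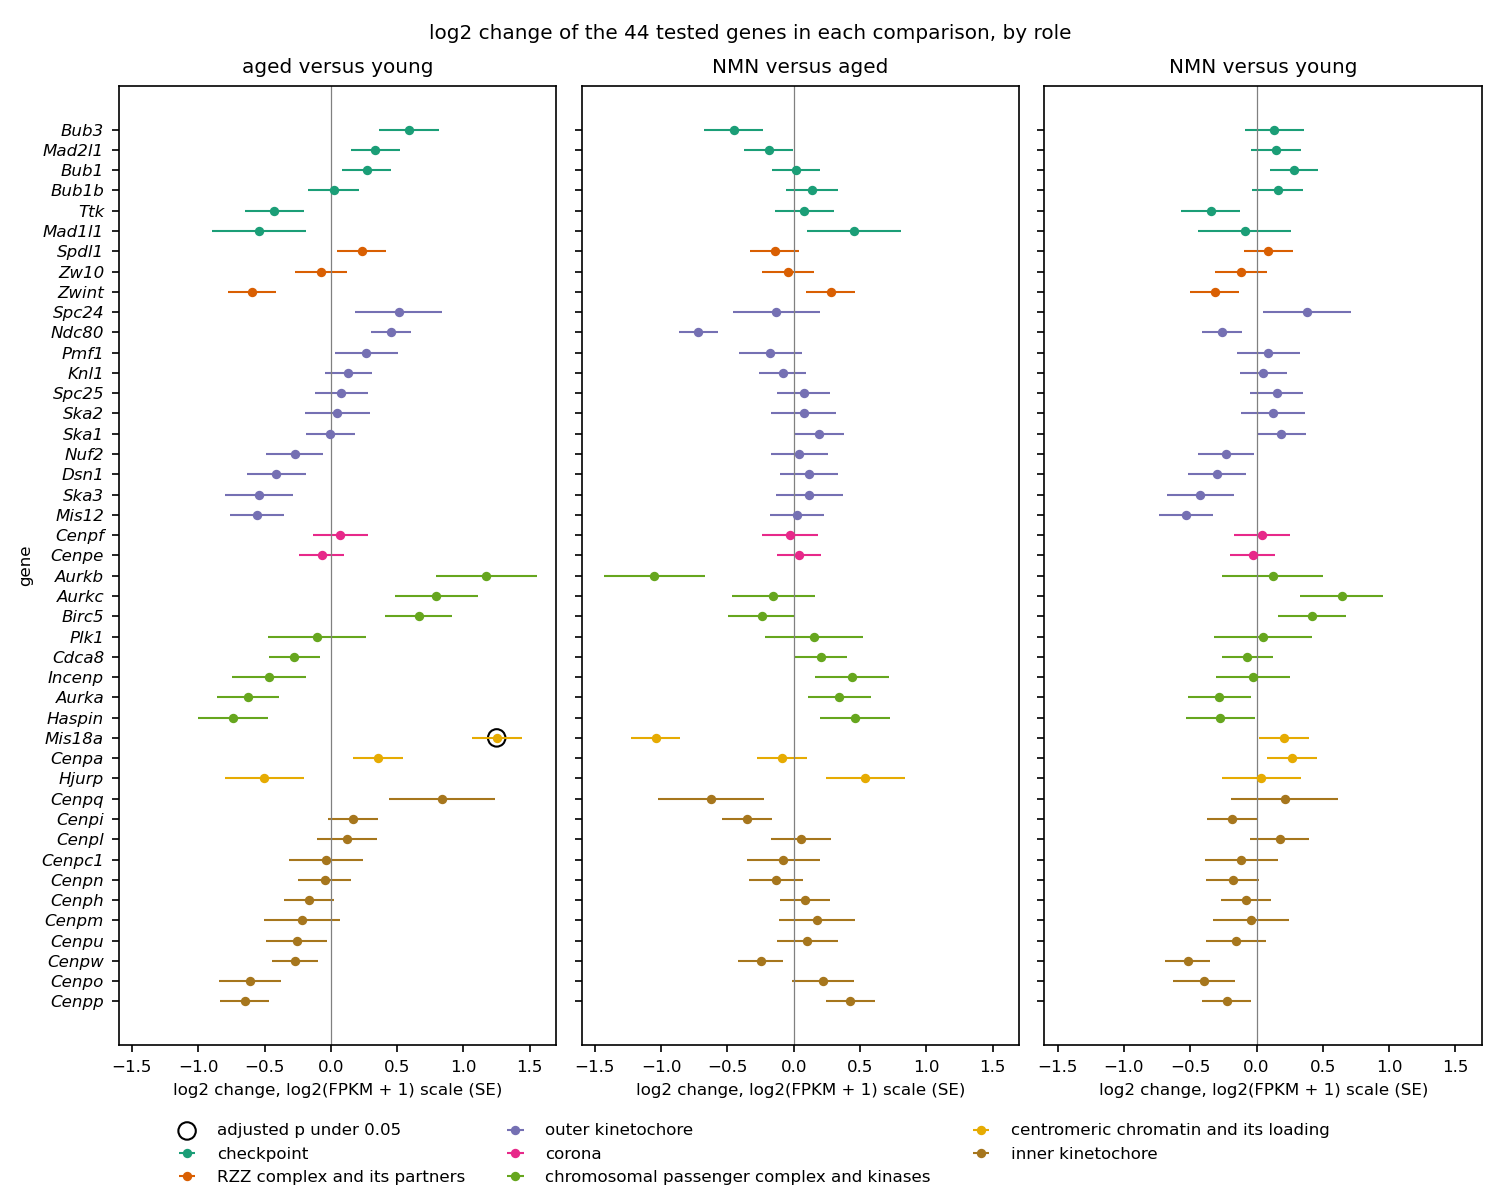
Log2 change with its standard error for the 44 tested genes, grouped by role, in the comparisons of aged with young, NMN with aged and NMN with young oocytes; circles mark an adjusted p below 0.05. The only circle is Mis18a in aged against young oocytes, at 1.25, and the changes of aged against young oocytes run from -0.74 to 1.25.

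Among the genes of centromeric chromatin, Mis18a rose in aged oocytes. Mis18a is a subunit of the Mis18 complex, which marks centromeres so that the chaperone HJURP can deposit new CENP-A. It had 3.61, 3.16 and 3.17 FPKM in NMN oocytes, 6.27, 9.21 and 8.60 FPKM in aged oocytes and 3.32, 2.11 and 2.54 FPKM in young oocytes. All 3 aged libraries lay above all 6 others, and the NMN and young libraries overlapped. The log2 change was 1.25 ± 0.19 (SE) in aged against young oocytes (limma, adjusted p = 0.0129), and 1.22 without aged 2 (adjusted p = 0.0196). In NMN against aged oocytes it was -1.04 ± 0.19 (limma, unadjusted p = 0.000216, adjusted p = 0.0709), and -1.01 without aged 2 (adjusted p = 0.0896). NMN and young oocytes differed by 0.21 ± 0.19 (adjusted p = 0.790). The call in aged against young oocytes held in 6 of the 9 fits that left out 1 library, and was lost without aged 3 (adjusted p = 0.0567), young 2 (0.0791) or young 3 (0.0711). It also missed the threshold with no filter on low values (adjusted p = 0.0514).

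The proteins that work with Mis18a did not pass the test. Hjurp had 5.28, 6.54 and 10.04 FPKM in NMN, 4.78, 3.32 and 5.85 FPKM in aged and 4.95, 6.55 and 8.72 FPKM in young oocytes. The aged libraries included the 2 lowest values, but the groups overlapped, and the log2 change in aged against young oocytes was -0.50 ± 0.30 (limma, adjusted p = 0.406), or -0.26 without aged 2 (adjusted p = 0.696). Cenpa, the centromeric histone itself, averaged 25.0 ± 2.92 FPKM in NMN, 27.0 ± 4.78 FPKM in aged and 20.04 ± 3.96 FPKM in young oocytes (SD, n = 3 each). Its groups overlapped too, with a change of 0.35 ± 0.19 in aged against young oocytes (adjusted p = 0.352).

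Of the 8 genes of the chromosomal passenger complex and associated kinases, none passed the test between aged and young oocytes with all libraries at equal weights. The aged libraries did not overlap the young ones for 5 of them, with Aurkb, Aurkc and Birc5 higher and Aurka and Haspin lower. Of all tested genes 23.8% did not overlap in this comparison, 12.6% higher and 11.2% lower. Aurkb, the kinase of this complex in somatic cells, had 11.3, 3.47 and 6.88 FPKM in NMN, 17.6, 8.97 and 19.9 FPKM in aged and 5.91, 5.41 and 5.84 FPKM in young oocytes. All aged libraries were above all young ones, aged 2 was the lowest of the aged libraries, and the NMN libraries spread across the range of both. The log2 change was 1.17 ± 0.38 in aged against young oocytes (limma, adjusted p = 0.149). Without aged 2 it was 1.57 and passed the threshold (adjusted p = 0.0413). In NMN against aged oocytes it was -1.05 ± 0.38 (adjusted p = 0.358), and -1.45 without aged 2 (adjusted p = 0.129).

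Aurkc, the germ-cell relative of Aurkb, had 5.89, 3.06 and 4.17 FPKM in NMN, 5.38, 2.74 and 7.29 FPKM in aged and 2.16, 2.57 and 2.08 FPKM in young oocytes. Both NMN and aged libraries lay above all young ones, and they overlapped each other. The change in aged against young oocytes was 0.80 ± 0.31 (limma, adjusted p = 0.216), and without aged 2 it was 1.17 and passed (adjusted p = 0.0366). In NMN against young oocytes it was 0.64 ± 0.31 (adjusted p = 0.640). Aurkc is uncertain as a measurement: 74.2% of the 50-base words of its transcript also occur in other genes, while Aurka and Aurkb share none. Of the words of the transcript, the processed pseudogene Gm12463 alone holds 61.3%, Gm6909 15.6%, Gm7210 9.05%, Gm7151 8.96% and Gm7789 6.06%. Gm6909 was listed at 0.0541 to 0.489 FPKM in NMN, 0.124 to 0.467 FPKM in aged and 0.683 to 1.15 FPKM in young oocytes. Its young libraries lay above its aged ones, the reverse of Aurkc. Gm7151 stayed at or below 0.241 FPKM, and Gm7210 was not in the table. The part of these copies in the Aurkc values was not tested. Gm12463 was listed at 0.784 to 2.52 FPKM in NMN, 1.01 to 2.19 FPKM in aged and 0.551 to 1.48 FPKM in young oocytes. Gm7789 was listed at 2.06 to 4.67 FPKM in NMN, 3.34 to 4.12 FPKM in aged and 2.34 to 5.04 FPKM in young oocytes. The ratios that follow carry the same uncertainty. Within a library, Aurkb stood at 1.14 to 1.92 times Aurkc in NMN, 2.73 to 3.28 times in aged and 2.11 to 2.81 times in young oocytes.

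Aurka, the spindle-pole kinase that is the most abundant of the Aurora transcripts here, had 151, 167 and 182 FPKM in NMN, 162, 99.5 and 140.2 FPKM in aged and 198, 202 and 182 FPKM in young oocytes. Every aged library lay below every young one, with aged 2 lowest, and the NMN libraries overlapped the aged ones. The change in aged against young oocytes was -0.62 ± 0.24, with a 95% interval from -1.15 to -0.10, and did not pass the adjusted test (limma, adjusted p = 0.197). Without aged 2 it was -0.35 (adjusted p = 0.310). The ratio of Aurka to Aurkb ran from 13.3 to 48.2 in NMN, from 7.03 to 11.1 in aged and from 31.3 to 37.4 in young libraries.

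Haspin, the kinase whose mark on histone H3 recruits the passenger complex to centromeres, had 84.8, 106 and 98.9 FPKM in NMN, 73.6, 50.1 and 91.8 FPKM in aged and 101, 115 and 121 FPKM in young oocytes. Every aged library lay below every young one. The change in aged against young oocytes was -0.74 ± 0.26 (limma, adjusted p = 0.176). Without aged 2, the lowest library, it was -0.43 (adjusted p = 0.274). In NMN against aged oocytes it was 0.46 (adjusted p = 0.535), with overlapping groups, and 0.16 without aged 2 (adjusted p = 0.707). Birc5, or survivin, which reads that mark, had 119, 84.4 and 73.9 FPKM in NMN, 77.9, 174 and 92.7 FPKM in aged and 69.4, 60.7 and 64.9 FPKM in young oocytes. The aged libraries were above the young ones, aged 2 far above the other two, and the change in aged against young oocytes was 0.66 ± 0.25 (adjusted p = 0.203), or 0.39 without aged 2 (adjusted p = 0.363).

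The scaffold of the complex, Incenp, averaged 30.3 ± 3.88 FPKM in NMN, 22.9 ± 7.50 FPKM in aged and 29.6 ± 2.94 FPKM in young oocytes. Cdca8, or borealin, averaged 141 ± 6.65 FPKM in NMN, 123 ± 17.5 FPKM in aged and 142 ± 8.57 FPKM in young oocytes (SD, n = 3 each). For both, aged 2 held the lowest value of the 9 libraries, at 14.8 FPKM for Incenp and 104 FPKM for Cdca8, and the groups overlapped. The change in aged against young oocytes was -0.46 ± 0.28 for Incenp, or -0.12 without aged 2, and -0.28 for Cdca8, or -0.08 without aged 2 (limma, adjusted p from 0.412 to 0.824). Plk1, the polo-like kinase that acts at kinetochores and spindle poles, had 41.7, 57.5 and 55.7 FPKM in NMN, 61.2, 25.1 and 63.3 FPKM in aged and 39.8, 51.7 and 52.0 FPKM in young oocytes. Aged 2 was the lowest and the other two aged libraries were the highest of all 9, and the change in aged against young oocytes was -0.10 ± 0.37 with a 95% interval from -0.92 to 0.72. Without aged 2 its sign turned, to 0.39 (limma, adjusted p = 0.393).

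**Figure D3:**
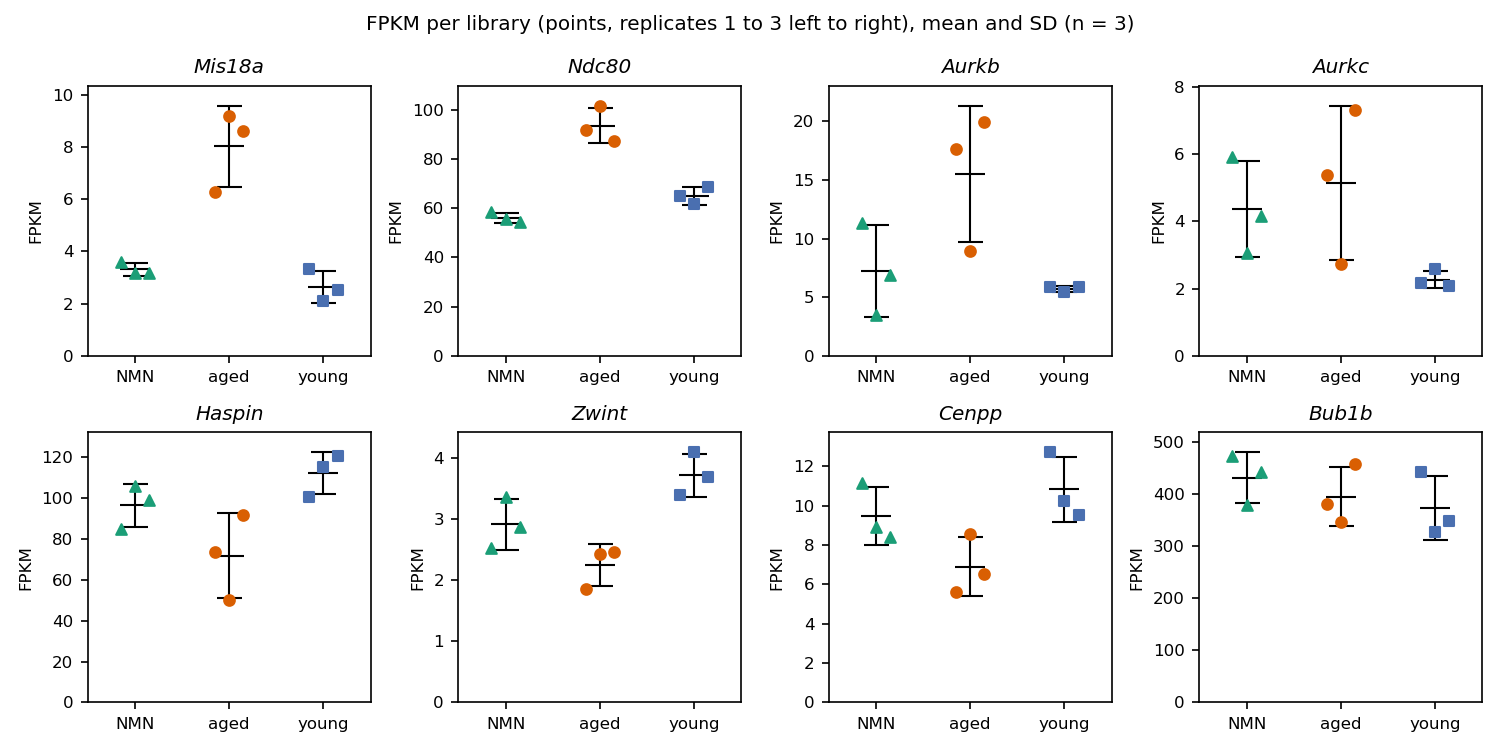
FPKM in each library for Mis18a, Ndc80, Aurkb, Aurkc, Haspin, Zwint, Cenpp and Bub1b in NMN, aged and young oocytes; points are libraries and bars show the mean and SD (n = 3). The aged points of Mis18a (6.27 to 9.21 FPKM) and Ndc80 (87.4 to 102 FPKM) lie above all others, while those of Bub1b overlap both groups.

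These libraries prime from the poly(A) tail, and oocytes lengthen and shorten the tails of stored transcripts through elements close to the cleavage site. Annotated 3′ ends are therefore shown for a few genes chosen by hand. Bub1b and Cenph are the most abundant of the genes. Ndc80, Aurkb, Aurkc and Haspin are among the 17 genes whose aged and young libraries did not overlap. The others of the 17, Mis18a included, are not shown, so the ends printed do not stand for the kinetochore genes as a set. Each line gives 30 bases of the GENCODE M21 transcript, 5′ to 3′, ending at the last polyadenylation hexamer (AATAAA or ATTAAA) in its final 50 bases. Capitals mark the hexamers and the cytoplasmic polyadenylation element TTTTAT or TTTTAAT, searched on the sense strand with overlaps allowed.
Aurkb: aaattatgaagaacaacaTTTTATAATAAA
Aurkc: tttctcTTTTATgaagtgatgttaATTAAA
Bub1b: ctctcctttcactgtgtaTTTTATAATAAA
Cenph: TTTTATaacttaaggAATAAAaagAATAAA
Ndc80: accttttagacagatcagacagttAATAAA
Haspin: gaatttatagaatttcaacaggaaAATAAA
In GRCm38 these stretches lie at chr11:69051610-69051639 on the plus strand for Aurkb and chr7:7003042-7003071 on the plus strand for Aurkc. That of Bub1b lies at chr2:118641547-118641576 on the plus strand, and those of Cenph, Ndc80 and Haspin at chr13:100759705-100759734, chr17:71496118-71496147 and chr11:73135501-73135530, all on the minus strand. All are in the last exon, at the transcript's 3′ end. The 3′ ends of Aurkb, Aurkc, Bub1b and Cenph hold the element within the 30 bases, and those of Ndc80 and Haspin do not; in Ndc80 it begins 58 bases upstream of the hexamer. Over the tested genes with a hexamer, 5 of 35 kinetochore genes, or 14.3%, hold the element in this stretch, and 9.16% of all genes do. In the last 150 bases it was present in 14 of the 44 tested genes, or 31.8%, and in 2210 of 7959 tested genes with a coding transcript, or 27.8%. A match of letters is a description of the annotated end and not a measurement of tail length in these oocytes.

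In the outer kinetochore, Ndc80 had the smallest p both in aged against young and in NMN against aged oocytes. Neither passed the adjusted test with equal weights for the libraries. Ndc80 and Nuf2 form the arm of the NDC80 complex that grips the microtubule. Ndc80 had 58.5, 55.5 and 54.4 FPKM in NMN, 91.8, 102 and 87.4 FPKM in aged and 64.9, 61.6 and 68.5 FPKM in young oocytes. The 3 groups did not overlap in any pair, with NMN lowest and aged highest. The log2 change was -0.72 ± 0.15 in NMN against aged oocytes (limma, unadjusted p = 0.000687, adjusted p = 0.122) and 0.45 ± 0.15 in aged against young oocytes (unadjusted p = 0.0125, adjusted p = 0.153). Without aged 2 the NMN against aged value was -0.73 (adjusted p = 0.0896). NMN and young oocytes differed by -0.26 ± 0.15 (adjusted p = 0.696). Of the 50-base words of the Ndc80 transcript, 5.34% also occur in another gene.

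Nuf2, its partner, had 107, 129.8 and 118 FPKM in NMN, 127, 102 and 117 FPKM in aged and 111, 151 and 141 FPKM in young oocytes, with overlap between all groups. The ratio of Ndc80 to Nuf2 within a library was 0.427 to 0.546 in NMN, 0.723 to 0.994 in aged and 0.407 to 0.586 in young oocytes. The aged libraries stood above the rest in this ratio, which holds the same Ndc80 values and is no separate observation. The remaining subunits of the complex, Spc24 and Spc25, were less abundant per length. Spc24 ran from 4.06 to 14.2 FPKM over the 9 libraries and Spc25 from 1.79 to 3.39 FPKM, both with their highest value in aged 2. Neither passed the test, and their groups overlapped in aged against young oocytes.

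Mis12 and Dsn1, subunits of the complex that anchors NDC80 to the inner kinetochore, were lower in every aged library than in every young one. Mis12 averaged 17.6 ± 1.76 FPKM in NMN, 17.3 ± 0.944 FPKM in aged and 25.0 ± 4.36 FPKM in young oocytes (SD, n = 3 each). Its change was -0.56 ± 0.20 in aged against young oocytes (limma, adjusted p = 0.182) and -0.53 ± 0.20 in NMN against young oocytes (adjusted p = 0.513), and the NMN libraries too lay below the young ones. Dsn1 had 223, 259 and 267 FPKM in NMN, 262, 187 and 252 FPKM in aged and 266, 315 and 304 FPKM in young oocytes. Aged 2 was the lowest library for Dsn1, and the change in aged against young oocytes was -0.41 (adjusted p = 0.350), or -0.19 without it (adjusted p = 0.632). Exons of Mis12 overlap Derl2 on the opposite strand, and in libraries whose strand is not stated the reads of the pair cannot be told apart. Knl1, the scaffold that docks the checkpoint kinases, averaged 20.3 ± 1.55 FPKM in NMN, 21.6 ± 1.37 FPKM in aged and 18.9 ± 2.78 FPKM in young oocytes, with a change of 0.13 in aged against young oocytes (adjusted p = 0.729). The 3 members of the SKA complex, which follows shortening microtubules, were at 7.85 FPKM for Ska1, 7.22 FPKM for Ska3 and 1.34 FPKM for Ska2 on average, and none passed.

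Of the 6 checkpoint genes none passed the test in any comparison with equal weights for the libraries. Bub1b, which encodes BubR1 of the mitotic checkpoint complex, was the most abundant kinetochore transcript, with 474, 379 and 442 FPKM in NMN, 381, 346 and 457 FPKM in aged and 442, 328 and 348 FPKM in young oocytes. The groups overlapped throughout. Its change in aged against young oocytes was 0.02 ± 0.19 with a 95% interval from -0.41 to 0.45 (limma, adjusted p = 0.966), and 0.18 without aged 2 (adjusted p = 0.625). The miss does not show that the groups are alike, and the interval gives the size of change that these libraries leave possible.

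Mad2l1, or MAD2, the protein that changes shape to bind CDC20, had 27.8, 22.9 and 24.5 FPKM in NMN, 32.6, 27.8 and 26.3 FPKM in aged and 22.2, 24.3 and 18.6 FPKM in young oocytes. The aged libraries lay above the young ones, with a change of 0.34 (limma, adjusted p = 0.371). Bub3, which carries BUB1 and BubR1 to the kinetochore, had 4.64, 3.67 and 4.74 FPKM in NMN, 7.35, 4.90 and 6.94 FPKM in aged and 3.27, 4.49 and 3.43 FPKM in young oocytes. All aged libraries were above all others for Bub3. Its change was 0.59 ± 0.23 in aged against young oocytes (adjusted p = 0.203) and -0.45 ± 0.23 in NMN against aged oocytes (adjusted p = 0.488). Ttk, the MPS1 kinase that starts checkpoint signalling, ran the other way, at 20.3 ± 4.68 FPKM in NMN, 18.9 ± 0.964 FPKM in aged and 24.6 ± 2.41 FPKM in young oocytes, with every aged library below every young one and an adjusted p of 0.341.

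Bub1, the kinase that marks centromeric histone H2A, averaged 15.2 ± 2.19 FPKM in NMN, 15.1 ± 2.31 FPKM in aged and 11.8 ± 1.46 FPKM in young oocytes, and the groups overlapped (limma, adjusted p = 0.472 in aged against young oocytes). Mad1l1, or MAD1, which holds MAD2 at the kinetochore, had 4.25, 8.39 and 4.61 FPKM in NMN, 5.33, 2.02 and 4.59 FPKM in aged and 6.80, 4.36 and 6.23 FPKM in young oocytes. Its lowest library was aged 2 and its highest NMN 2, and the groups overlapped.

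Among the RZZ complex and its partners, which bring MAD1 and dynein to the kinetochore, Zwint was the gene that separated the groups. Zwint, which links KNL1 to the RZZ complex, had 2.52, 3.35 and 2.86 FPKM in NMN, 1.85, 2.42 and 2.45 FPKM in aged and 3.39, 4.08 and 3.68 FPKM in young oocytes. The 3 groups did not overlap, with aged lowest and young highest. The change was -0.59 ± 0.18 in aged against young oocytes (limma, adjusted p = 0.133), 0.28 in NMN against aged oocytes (adjusted p = 0.597) and -0.32 in NMN against young oocytes (adjusted p = 0.699). Zw10, a subunit of the complex, ran from 8.14 to 12.5 FPKM and Spdl1, the dynein adaptor Spindly, from 53.5 to 86.1 FPKM over the 9 libraries, with overlap between aged and young oocytes for both.

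The inner kinetochore, the constitutive network that sits on CENP-A chromatin, held both abundant and scarce transcripts. Cenph averaged 308 ± 61.3 FPKM in NMN, 291 ± 62.8 FPKM in aged and 310.0 ± 41.6 FPKM in young oocytes (SD, n = 3 each). Cenpn, which contacts the CENP-A nucleosome, had 183, 202 and 211 FPKM in NMN, 235, 188 and 237 FPKM in aged and 192, 232 and 227 FPKM in young oocytes. Neither separated the groups. Cenpc1, the CENP-C that ties the network to the outer layer, differed by -0.04 ± 0.28 in aged against young oocytes (limma, adjusted p = 0.958), and by 0.20 without aged 2 (adjusted p = 0.755). Cenpk and Cenpt, which belong to the same network, stayed at or below 1.20 and 0.329 FPKM in every library.

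Cenpp and Cenpo, subunits of the CENP-O group, were lower in every aged library than in every young one. Cenpp had 11.2, 8.91 and 8.40 FPKM in NMN, 5.63, 8.55 and 6.51 FPKM in aged and 12.7, 10.2 and 9.54 FPKM in young oocytes. The NMN libraries overlapped both groups. The change was -0.65 ± 0.19 in aged against young oocytes (limma, adjusted p = 0.108) and 0.42 in NMN against aged oocytes (adjusted p = 0.427). Cenpo averaged 8.65 ± 1.27 FPKM in NMN, 7.32 ± 1.02 FPKM in aged and 11.3 ± 2.26 FPKM in young oocytes, with a change of -0.61 ± 0.23 in aged against young oocytes (adjusted p = 0.203). Cenpq, of the same group, had 17.2, 6.33 and 10.9 FPKM in NMN, 15.3, 33.0 and 9.66 FPKM in aged and 11.6, 9.08 and 6.22 FPKM in young oocytes. Aged 2 was far above the rest, and the groups overlapped. Exons of Cenpp, Cenpo and Cenpq each overlap a gene on the opposite strand, as do those of 13 of the 50 genes in all.

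Cenpw, the histone-fold partner of CENP-T, had 1.92, 2.25 and 2.44 FPKM in NMN, 2.60, 2.76 and 3.11 FPKM in aged and 3.71, 3.35 and 3.31 FPKM in young oocytes. The 3 groups did not overlap, with NMN lowest and young highest. The change was -0.52 ± 0.17 in NMN against young oocytes (limma, unadjusted p = 0.0124, adjusted p = 0.426) and -0.25 in NMN against aged oocytes (adjusted p = 0.615).

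In the corona, the outermost layer, Cenpe, a kinesin that moves chromosomes to the spindle equator, had 159, 139.8 and 122 FPKM in NMN, 139.8, 135 and 134 FPKM in aged and 135, 134 and 142 FPKM in young oocytes. The groups overlapped, and the change in aged against young oocytes was -0.07 ± 0.17 with a 95% interval from -0.45 to 0.30 (limma, adjusted p = 0.860). Cenpf, a large microtubule-binding protein, had 84.9, 59.0 and 67.2 FPKM in NMN, 56.3, 105 and 61.6 FPKM in aged and 74.1, 59.4 and 62.1 FPKM in young oocytes, with aged 2 highest.

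Summed over roles, the groups overlapped for most roles. The passenger complex together with Aurka, Haspin and Plk1 summed to 589, 595 and 586 FPKM in NMN, 559, 479 and 574 FPKM in aged and 588, 615 and 594 FPKM in young oocytes. Every aged library was below every NMN and young one in this sum, and aged 2 was lowest. Within it Aurka and Haspin were lower, and Aurkb, Aurkc and Birc5 higher, in every aged than in every young library. The complex without Aurka, Haspin and Plk1 was not summed, so the order of this sum is not that of the complex itself. Centromeric chromatin genes summed to 37.3, 32.6 and 37.1 FPKM in NMN, 37.6, 44.7 and 37.1 FPKM in aged and 31.8, 29.7 and 27.0 FPKM in young oocytes, so the aged and NMN libraries lay above the young ones. The checkpoint genes summed to 451 to 543 FPKM in NMN, 416 to 527 FPKM in aged and 398 to 507 FPKM in young oocytes, and overlapped. These sums follow their most abundant members and were not tested.

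**Figure D4:**
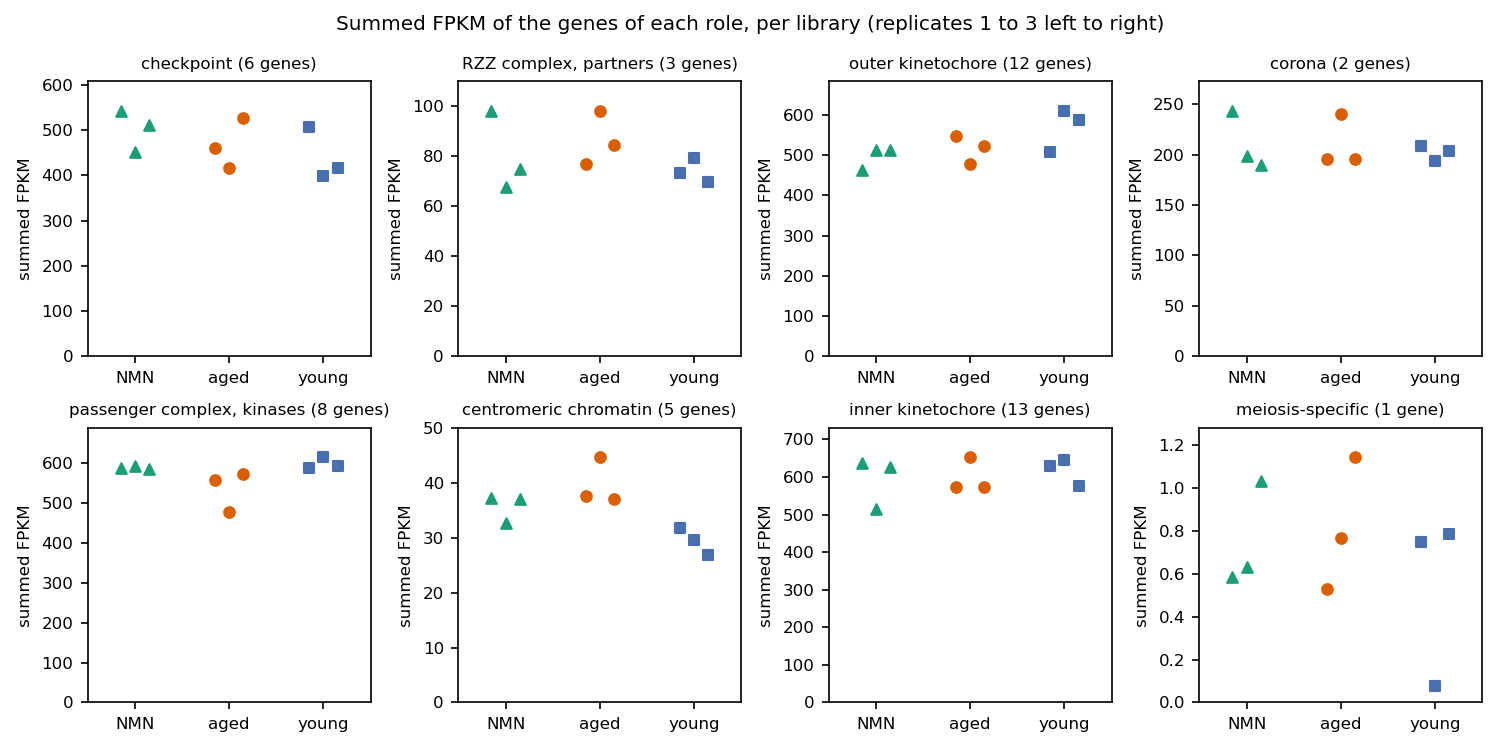
Summed FPKM of the genes of each role in each library of NMN, aged and young oocytes; each point is 1 library and the panels have their own linear axes. The passenger complex together with Aurka, Haspin and Plk1 summed to 479 to 574 FPKM in the aged libraries. These sums lie below those of the NMN (586 to 595 FPKM) and young (588 to 615 FPKM) libraries.

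Of 36 other genes with a part in kinetochore function or spindle attachment, 35 were in the table and 32 were tested. In aged against young oocytes 1 of the 32 fell, Bora, and none rose, where 0.916% of all genes fell. At an unadjusted p below 0.05 there were 3, or 9.38% against 18.3% of all genes. Bora, the cofactor through which Aurora A activates PLK1, had 40.9, 55.0 and 66.7 FPKM in NMN, 29.2, 39.7 and 40.3 FPKM in aged and 82.7, 91.8 and 93.0 FPKM in young oocytes. The 3 groups did not overlap. The change was -1.35 ± 0.21 in aged against young oocytes (limma, adjusted p = 0.0171), 0.55 ± 0.21 in NMN against aged oocytes (adjusted p = 0.379) and -0.79 ± 0.21 in NMN against young oocytes (adjusted p = 0.293). The call was lost without young 1 (adjusted p = 0.0504), young 2 (0.0807) or young 3 (0.110), and with no filter on low values (0.0759). In the other comparisons limma called 0 of the 32, with 3 at an unadjusted p below 0.05 in NMN against aged oocytes, or 9.38% against 11.3% of all genes, and 2 in NMN against young oocytes, or 6.25% against 8.13%.

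Kntc1, the Rod subunit of the RZZ complex, had 3.20, 2.29 and 4.03 FPKM in NMN, 3.02, 3.33 and 3.09 FPKM in aged and 1.93, 1.82 and 2.47 FPKM in young oocytes. Every aged library lay above every young one, with a change of 0.39 ± 0.20 (limma, adjusted p = 0.316). The shugoshins, which protect centromeric cohesin, did not pass: Sgo1 averaged 24.9 ± 3.40 FPKM in NMN, 25.4 ± 0.686 FPKM in aged and 29.7 ± 1.78 FPKM in young oocytes, and Sgo2a averaged 7.78 ± 0.288 FPKM in NMN, 8.25 ± 0.324 FPKM in aged and 8.07 ± 1.01 FPKM in young oocytes (SD, n = 3 each). Cdc20, the activator of the anaphase-promoting complex that the checkpoint holds, had 268, 369.7 and 255 FPKM in NMN, 241, 177 and 275 FPKM in aged and 311, 236 and 283 FPKM in young oocytes, with overlapping groups and a change of -0.34 in aged against young oocytes (adjusted p = 0.524), or -0.08 without aged 2 (adjusted p = 0.883).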

How the data were processed

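Messenger RNA of 9 oocyte libraries (3 NMN, 3 aged, 3 young) was measured by Smart-seq2 on a DNBseq instrument, per the labels' protocols; the series' design text names another platform. The authors deposited 1 table of FPKM values for 22526 genes, of which 22487 (99.83%) were matched to a symbol through GENCODE M21. The submitters' processing notes name Bowtie2 2.2.5, RSEM and the mm9 build, without their roles; strand and filters are not given in the sources used here. Its name says raw counts, but its values are not whole numbers, and low values are whole multiples of a step that depends on transcript length, from which depth was read in 2659 genes with 1 transcript (tolerance 0.02 reads). The deposited FPKM were divided by trimmed-mean factors (30% of ratios and 5% of levels trimmed) and tested as log2(FPKM + 1), so a change of a low gene is understated. Levels in the text are the FPKM as deposited.

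The 9168 genes that reached 1 FPKM in 3 or more libraries entered 1 limma 3.58.1 fit (R 4.3.3) of 3 group means moderated robustly along a variance trend; Benjamini-Hochberg adjustment ran over all of them, with a threshold of 0.05. Changes are differences of log2(FPKM + 1), tested two-sided, with 95% intervals. The fit was checked on simulated data. Same-numbered NMN and young libraries passed the rule for pairing (correlation of deviations 0.4974, 0.1186 and 0.1421, all over 0.1), and the other groups did not. The labels tie the numbers to no animal or day. Genes named were those called, those with an unadjusted p below 0.01 and groups apart, the 8 highest, the 3 with the smallest p per comparison and a fixed set of 25; Cenpo and Cenpq were added with their values, and other genes by range, mean or overlap, after the values were seen. The members and lists were chosen with earlier results of these data known. Sequences come from GENCODE M21 transcripts (GRCm38); Python 3.11.15 with pandas 2.3.3 was used for the rest.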

Additional observations from a re-analysis of the deposited data

How the results depend on the processing

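Each result was recomputed without scaling, with median-of-ratios factors, with a pseudocount of 0.1, without the low-value filter, with a minimum of 10 FPKM, from the 2 groups compared alone, with quality weights, without variance trend and robust moderation, with a replicate block and without each library in turn. No named gene changed direction while called. The kinetochore genes called in aged against young oocytes numbered 1 and became 0 with no filter and 0 with the 10 FPKM minimum (Mis18a was then not tested). With quality weights they numbered 9 (5 higher, 4 lower), where 906 of 9168 genes were called (496 higher, 410 lower). Without single libraries they numbered 0 to 3: 0 without aged 3, young 2 or young 3, and 3 (Mis18a, Aurkb and Aurkc) without aged 2. In NMN against aged oocytes they numbered 0 and became 3 with quality weights, and in NMN against young oocytes they were 0 under every setting. Over all genes, aged against young oocytes gave 200 calls, against 31 with no filter, 97 with 10 FPKM, 906 with weights, 132 from the 2 groups alone and 20 to 210 without single libraries. NMN against aged gave 20, against 9, 3, 163, 6 and 5 to 26 in the same order. NMN against young gave 7, against 0, 1, 73, 17 and 1 to 14, and 3 without scaling. The lower counts without single libraries come with fewer libraries in the fit; the cause of the others was not tested. Leaving out 1 library in aged against young oocytes gave 110 calls without NMN 3, 130 without aged 1, 35 without aged 3, 43 without young 1, 20 without young 2 and 27 without young 3.

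With the replicate block the counts over all genes were 73 in aged against young, 15 in NMN against aged and 0 in NMN against young oocytes. Without it they were 200, 20 and 7. Those of kinetochore genes stayed 1, 0 and 0, and the block changed the call of no named gene. Same-numbered libraries correlated at -0.3391, -0.267 and 0.3139 between aged and young and at -0.3717, -0.3592 and 0.1992 between NMN and aged oocytes, so these groups share only a number.

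With 3 libraries a group, small changes can be missed, and the printed intervals give the sizes of change left possible before adjustment. An interval that leaves out no change can still go with a missed adjusted test, as for Aurka in aged against young oocytes. Genes near 1 FPKM rest on few reads, and the 6 genes below the filter were not tested.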
